A study of Mus musculus with 2 samples.

Results

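The interleukin 12 family was followed here in single cells of the mouse gut through its 8 subunit genes: the 5 genes of the secreted subunits (Il12a, Il12b, Il23a, Ebi3 and Il27) and 3 genes of receptor chains (Il12rb1, Il12rb2 and Il23r). These 8 genes were picked by symbol out of the 32285 genes of the count matrices, and all 8 were found in both. The series holds 2 droplet libraries of gut lamina propria cells labelled cd11b+, 1 titled Runx3_fl and 1 titled Runx3. Both were pools of young adult male Runx3 fl/fl littermates, and the conditional knockout animals also carried Lyz2-Cre, which is active in macrophages, neutrophils and other myeloid cells. Neither title states Cre, so the libraries are called here by their titles, and animals within a pool cannot be told apart.

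The family's cytokines are pairs of chains. IL-12 joins p35 (Il12a) to p40 (Il12b), IL-23 joins p19 (Il23a) to the same p40, IL-27 joins p28 (Il27) to EBI3 (Ebi3), and IL-35 is described as p35 with EBI3. Antigen-presenting cells and other myeloid cells are the known makers of IL-12, IL-23 and IL-27. Natural killer (NK) cells and T cells read them: IL-12 through Il12rb1 with Il12rb2, which drives interferon gamma, and IL-23 through Il12rb1 with Il23r, which sustains cells that make IL-17 and IL-22 at the gut barrier.

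All 8 are protein-coding genes, given here on GRCm38 with the GENCODE annotation. Il12a lies at chr3:68690644-68698547 on the plus strand, Il12b at chr11:44400063-44414033 on the plus strand, Il23a at chr10:128296139-128298752 on the minus strand, Ebi3 at chr17:55952640-55957022 on the plus strand and Il27 at chr7:126589010-126594941 on the minus strand. Il12rb1 lies at chr8:70808449-70821424 on the plus strand, and the genes Il12rb2 (chr6:67291318-67376188) and Il23r (chr6:67422932-67491855) are neighbours on the minus strand of chromosome 6. No member overlapped another gene on its own strand. Ebi3, Il27 and Il12rb2 each overlap a gene on the opposite strand (Gm16712, Apobr and Serbp1).

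RefSeq promoter windows, 250 bases that end at the base before the transcript start, were on hand for 5 of the 8 members. All 5 are printed 5′ to 3′, since each of these genes passed 2-fold between the libraries in at least 1 class. Capitals mark a match on either strand to the RUNX core (TGTGGT or TGCGGT) or to a kB-type motif (GGG and CC parted by 5 bases of any kind). The Il12b window (GRCm38.p6, chr11:44399813-44400062, plus strand) held neither.
Il12b: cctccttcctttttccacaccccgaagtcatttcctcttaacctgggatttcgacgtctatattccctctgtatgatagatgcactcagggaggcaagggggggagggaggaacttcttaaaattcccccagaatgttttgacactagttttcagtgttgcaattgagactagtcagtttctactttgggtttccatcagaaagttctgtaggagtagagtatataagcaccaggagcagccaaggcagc
The window of the second annotated Il12a start (chr3:68691174-68691423, plus strand) held a RUNX core at -126 to -121 from the start and 2 overlapping kB-type matches between -113 and -103.
Il12a: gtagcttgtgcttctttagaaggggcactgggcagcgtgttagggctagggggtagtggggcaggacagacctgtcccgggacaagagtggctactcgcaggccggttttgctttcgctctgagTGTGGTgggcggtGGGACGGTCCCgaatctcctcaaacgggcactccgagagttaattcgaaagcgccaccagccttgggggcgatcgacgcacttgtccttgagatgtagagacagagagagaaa
The Ebi3 window (chr17:55952373-55952622, plus strand) held 2 overlapping kB-type matches between -44 and -34.
Ebi3: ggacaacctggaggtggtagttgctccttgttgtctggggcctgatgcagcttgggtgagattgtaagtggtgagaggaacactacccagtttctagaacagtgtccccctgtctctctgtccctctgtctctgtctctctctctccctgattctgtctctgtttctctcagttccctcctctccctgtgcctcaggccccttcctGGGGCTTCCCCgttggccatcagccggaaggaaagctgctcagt
The Il12rb2 window (chr6:67376189-67376438, minus strand) held a RUNX core on the opposite strand at -115 to -110.
Il12rb2: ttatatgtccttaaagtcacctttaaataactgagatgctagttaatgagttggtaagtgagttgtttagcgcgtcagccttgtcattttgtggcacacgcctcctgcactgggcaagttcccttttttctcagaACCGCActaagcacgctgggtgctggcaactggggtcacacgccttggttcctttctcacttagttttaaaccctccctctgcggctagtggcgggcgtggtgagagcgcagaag
The Il23r window (chr6:67491856-67492105, minus strand) held a kB-type match at -142 to -133.
Il23r: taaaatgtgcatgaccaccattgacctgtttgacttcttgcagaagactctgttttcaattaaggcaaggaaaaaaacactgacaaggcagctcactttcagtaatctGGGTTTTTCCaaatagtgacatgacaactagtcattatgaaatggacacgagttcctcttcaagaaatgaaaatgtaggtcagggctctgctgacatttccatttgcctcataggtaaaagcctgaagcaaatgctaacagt
Over the 6 member windows, which also count the other annotated Il12a start (no match, not printed), the RUNX core was present in 2 and the kB-type motif in 3, against 18.6% and 45.8% of all 32851 mouse windows. The interferon-response pair (GAAA repeated after 2 bases of any kind) and the AP-1 motif TGANTCA were in 0 of 6, against 2.98% and 6.75% of all windows. A match is a run of letters and was not tested as a binding site.

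Cells with 200 to 6000 detected genes and at most 15% mitochondrial UMIs (unique molecular identifiers, each standing for 1 captured transcript) were kept, 11885 of 12968 in the Runx3_fl library and 8167 of 8953 in the Runx3 library. Median depth was 9573 and 5731 UMIs per kept cell. Each of 6 classes is a gate of at least 1 UMI: Xcr1 for conventional dendritic cells type 1 (cDC1), Cd209a for cDC2, Csf1r with C1qa for macrophages, Csf3r for neutrophils, Ncr1 for NK cells and Cd3e for T cells. Cells that met several gates were set aside. In the order Runx3_fl, Runx3 the gates held 355 and 55 cDC1, 236 and 270 cDC2, 246 and 346 macrophages, 1361 and 1702 cells of the Csf3r gate, 1326 and 105 NK cells, and 2946 and 458 T cells. No gate was met by 4428 and 4228 cells.

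The libraries did not fully match what their labels lead a reader to look for. Runx3, the gene named in the titles, stood at 152.1 CPM (UMIs of a gene per 1000000 UMIs of its class) in the macrophage gate of the Runx3_fl library and at 229.5 in that of the Runx3 library, so it was not lower under the title Runx3. A 3′ library need not report the deleted part of a gene. Xist without any Y-linked transcript was seen in 2756 kept cells of the Runx3_fl library and 0 of the Runx3 library, although the methods describe male pools, and Y-linked transcripts without Xist were seen in 7059 and 6057 cells. The libraries shared 37 cell barcodes. Itgam, which encodes CD11b, was present in every gate, from 19.9 CPM (cDC1) to 174.7 (Csf3r gate) in the Runx3_fl library, with 43.2 in the T gate.

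Marker genes not used for gating were highest in their own gate for 6 of 6 macrophage, 5 of 5 neutrophil, 5 of 5 NK and 5 of 5 T cell markers in both libraries. For cDC1 this held for 4 of 5, since Irf8 was higher in NK cells. For cDC2 it held for 4 of 6 in the Runx3_fl library and 3 of 6 in the Runx3 library, where the summed cDC2 markers were higher in the macrophage gate (726.5 CPM) than in the cDC2 gate (705.8). The Csf3r gate was mixed: 665 of its 1361 and 851 of its 1702 cells also held a Csf1r UMI, and its summed neutrophil markers were 4317 and 32731 CPM. It is therefore called the Csf3r gate.

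With 1 library per group no test between groups was possible. Levels are in CPM, and the range in brackets is the exact 95% Poisson interval. It covers counting error only and not differences between cells, animals or preparations. Differences between libraries are log2 ratios, Runx3 over Runx3_fl, after adding 1 CPM to each level. Their brackets hold the exact 95% interval of the plain ratio of counts, so for sparse genes the shrunken log2 value can lie near or past its edge. A gene counted as lower or higher where its log2 ratio passed 2-fold and it reached 10 CPM in at least 1 library of that class.

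Ligand genes were highest in a myeloid class and receptor genes in a lymphoid class in 16 of 16 combinations of gene and library. Pooled over the 4 myeloid gates and the 2 lymphoid gates, the log2 ratio of myeloid over lymphoid level was 1.49 to 4.77 for the 5 ligand genes and -5.36 to -2.08 for the 3 receptor genes. The class with the highest level was the same in both libraries for 6 of 8 genes. The exceptions were Il12b, highest in cDC1 of the Runx3_fl library and in macrophages of the Runx3 library, where its interval overlapped that of the Csf3r gate, and Il12rb1, highest in T cells and in NK cells.

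**Figure D1:**
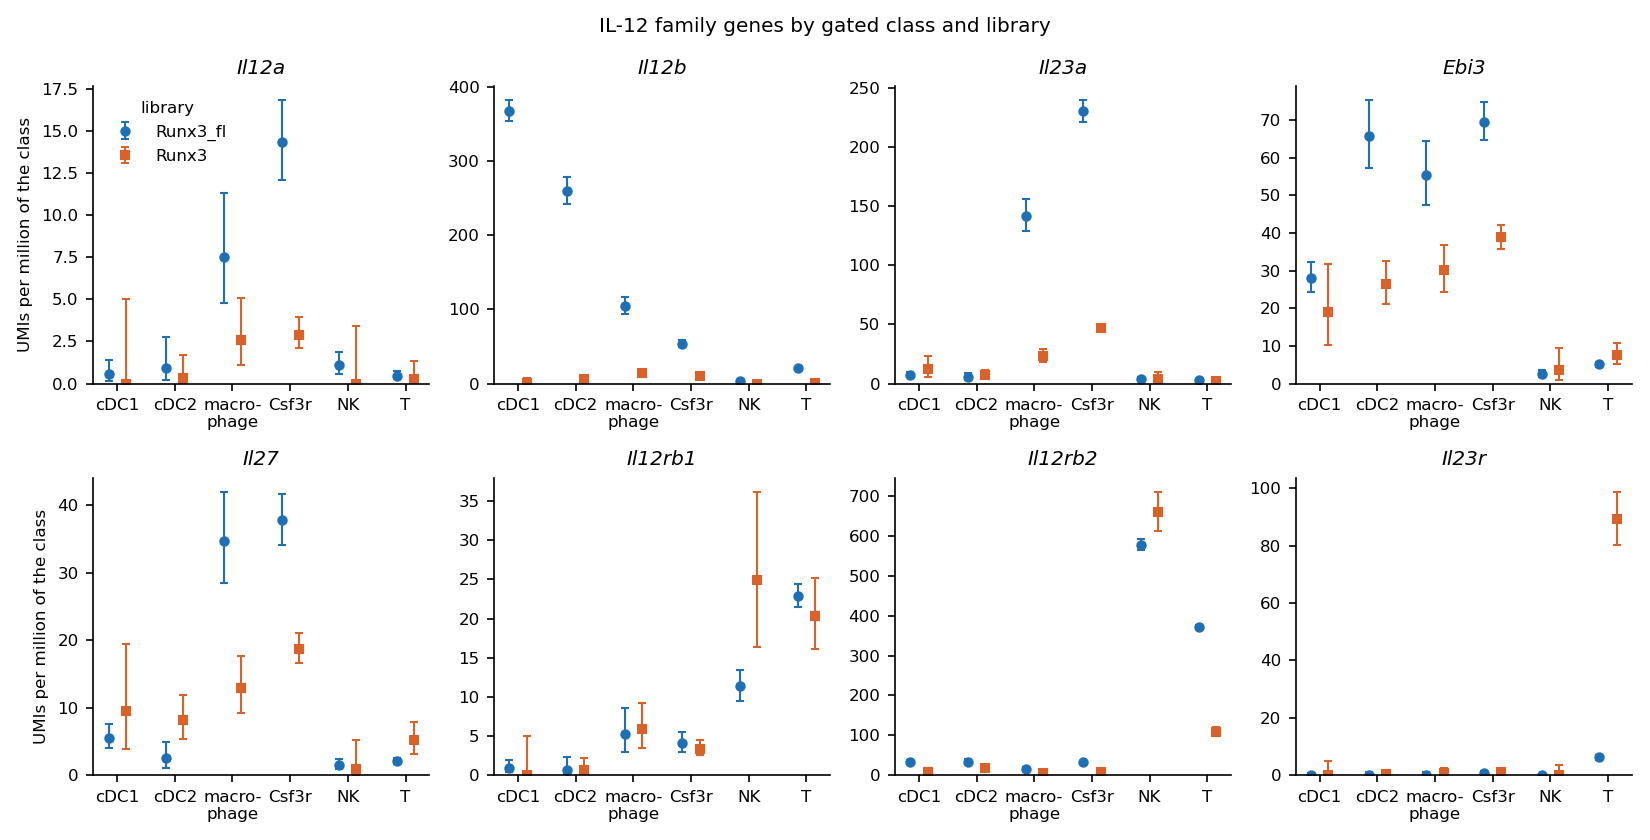
Level of each of the 8 genes in each of the 6 gated classes, in CPM on a linear axis of its own for each gene, for the Runx3_fl (circles) and Runx3 (squares) libraries, with exact 95% Poisson intervals as bars. The ligand genes peak in myeloid gates and the receptor genes in NK or T cells, and Il12b in cDC1 stands at 368 and 1.35.

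Il12b, the p40 chain shared by IL-12 and IL-23, had the widest gap between the libraries. Its level in cDC1 was 368 CPM (354 to 382) in the Runx3_fl library and 1.35 (0.034 to 7.54) in the Runx3 library, from 2716 UMIs and 1 UMI, a log2 ratio of -7.29 (-13.39 to -5.61). In cDC2 it was 260 (242 to 278) and 6.32 (3.91 to 9.65), a log2 ratio of -5.15 (-6.06 to -4.74). Both dendritic gates were thus far apart between the libraries, with intervals that did not overlap. In macrophages the level was 104 (93.1 to 116) and 13.6 (9.80 to 18.4), a log2 ratio of -2.85 (-3.44 to -2.47), and in the Csf3r gate 53.8 (49.4 to 58.4) and 10.4 (8.83 to 12.2), a log2 ratio of -2.26 (-2.63 to -2.10). The order in the Runx3_fl library was cDC1, cDC2, macrophages, Csf3r gate, T cells and NK cells, with no overlap between neighbours. In the Runx3 library every neighbour overlapped the next.

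Il12b RNA was carried by few cells. In the Runx3_fl library 75 of 355 cDC1 held any, at 36.2 UMIs per positive cell and up to 452 in a single cell, and the 10% of cDC1 with the most held 95.1% of its UMIs. After thinning every cell to 2000 UMIs to even out depth, 14.3% (10.8 to 18.4, exact binomial) of 350 cDC1 held Il12b, against 0.454% of 1322 NK cells, a class that should lack it. In the Runx3 library 0 of 49 thinned cDC1 held it, which allows a share of up to 6.12%. Unthinned, the share was 21.1% against 1.82%. The gap in cDC1 therefore exceeded counting error in share as well as in level, on 55 cells. The thinned shares in the Runx3 library were 0.402% in cDC2, 1.02% in macrophages and 0.633% in the Csf3r gate. All lay below the 2.91% that 0 of 103 NK cells allows there, so these shares cannot be set apart from that small NK background. In the larger T gate of that library 0 of 428 thinned cells held Il12b. As levels, Il12b there was 13.6 in macrophages, 10.4 in the Csf3r gate and 6.32 in cDC2. T cells had 0.24, from 1 UMI, and NK cells had 0 UMIs.

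Much of the Il12b lay in cells that met no gate. Such cells held 47.8% of all Il12b UMIs in the Runx3_fl library and 49.1% in the Runx3 library, with levels of 172 and 13.1 CPM, and cells of several gates held 14.9% and 15.9%. The 294 ungated Il12b-positive cells of the Runx3_fl library had 4416 CPM of H2-Ab1 (an MHC class II chain), 1647 of Ccr7 (the receptor that guides dendritic cells to lymph nodes), 325 of Fscn1 (an actin bundler of mature dendritic cells) and 124 of Flt3 (a dendritic growth factor receptor). Cells with UMIs of both Ccr7 and Fscn1, the pair fixed for migratory dendritic cells, numbered 223 and 100. There Il12b reached 767 (737 to 798) and 82.6 (67.4 to 100.2), a log2 ratio of -3.20 (-3.51 to -2.93). Il12b was thus detected in migratory-type cells of both libraries, and at a lower level in the Runx3 library. These cells could also meet other gates, and the 2 sets differed in transcripts of other cells. C1qa stood at 36.6 and 221 CPM, S100a8 at 51.1 and 1456 and Jchain, a plasma cell marker, at 954 and 4364. Fscn1 was alike at 966 and 971, and Flt3 was 242 and 172. The part of other cells or free RNA in the Il12b difference was not tested.

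Il12b counted in the T gate came with dendritic transcripts. The level there was 20.8 (19.5 to 22.2) and 0.24 (0.0062 to 1.36), the latter from 1 UMI. Of 2946 T-gated cells in the Runx3_fl library, 45 held all 899 UMIs, and in those 45 cells H2-Ab1 stood at 2976 and Ccr7 at 828 CPM, against 245 and 42.1 in the whole gate. Trbc2, a T cell receptor chain, was 486 against 847. After thinning, 0.512% of T cells held Il12b, near the 0.454% of NK cells. The part of doublets or free RNA in this was not tested.

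**Figure D2:**
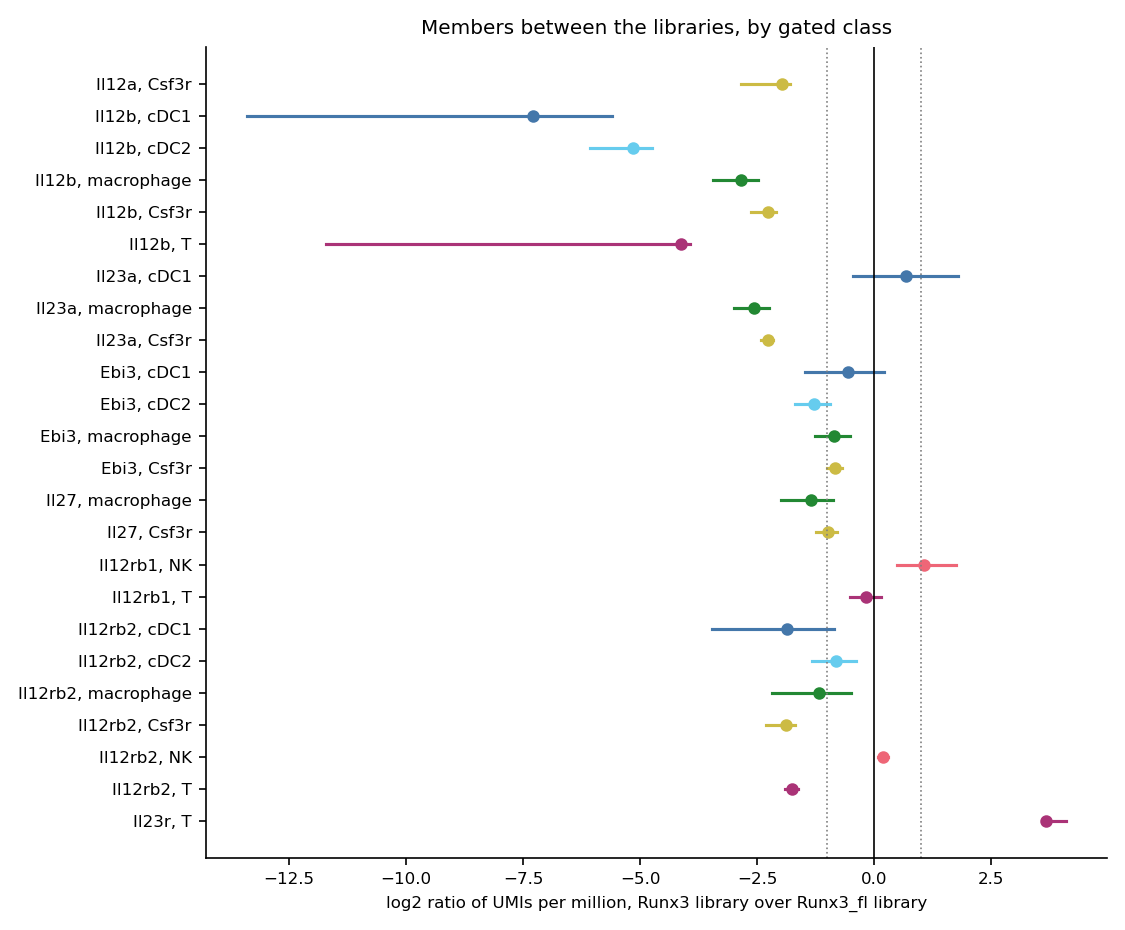
Log2 ratio of the Runx3 over the Runx3_fl library for each gene in each class, with 1 CPM added (points, coloured by class), the exact 95% interval of the count ratio (lines) and the 2-fold limits (dotted). Of the 24 combinations with enough UMIs, 14 lie beyond 2-fold lower, 2 beyond 2-fold higher (Il12rb1 in NK cells, Il23r in T cells) and 8 between.

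Il23a, the p19 chain particular to IL-23, was highest in the Csf3r gate. Its level there was 230 (221 to 240) in the Runx3_fl library and 47.1 (43.6 to 50.8) in the Runx3 library, a log2 ratio of -2.27 (-2.42 to -2.17). In macrophages it was 142 (129 to 156) and 23.3 (18.2 to 29.4), a log2 ratio of -2.56 (-2.99 to -2.24). The macrophage gap was not resolved in every part of that gate. The 59 and 11 macrophages with a Nos2 UMI had 140 and 92.4, the latter from 15 UMIs. Their log2 ratio was -0.59 (-1.48 to 0.18), an interval that still takes in a 2-fold gap. The 187 and 335 macrophages without a Nos2 UMI had 143 and 19.5, a log2 ratio of -2.81 (-3.31 to -2.46). As wholes the Csf3r and macrophage gates were lower in the Runx3 library without overlap, while the cDC1 and cDC2 gates held little in either. In cDC1 the level was 7.17 (5.37 to 9.38) and 12.2 (5.57 to 23.1), and in cDC2 5.64 (3.34 to 8.92) and 7.52 (4.87 to 11.1), with overlapping intervals. In Ccr7 and Fscn1 cells, of migratory dendritic type, Il23a was 41.0 (34.3 to 48.7) from 130 UMIs and 3.21 (0.87 to 8.22) from 4 UMIs. The log2 ratio was -3.32 (-5.57 to -2.28), with an interval that overlapped those of the Csf3r gate and of macrophages. After thinning, 26.5% (24.1 to 29.0) and 7.59% (6.27 to 9.10) of Csf3r-gated cells held Il23a, against 0.530% and 0.971% of NK cells. Without thinning it was found in 539 of 1361 and 230 of 1702 cells.

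Il23a was also lower within parts of the mixed Csf3r gate. Among cells with at least 5 UMIs of S100a8, an abundant neutrophil protein, the level was 455 (426 to 485) in 449 cells and 73.3 (65.2 to 82.2) in 415 cells, a log2 ratio of -2.62 (-2.83 to -2.44). This cut need not pick like cells in the 2 libraries. S100a8 stood there at 8346 and 60356 CPM and Retnlg, another neutrophil marker, at 530 and 4010, and S100a8 was 5.82 and 105 even in cDC1. In the S100a8-high cells Il12b was 3.45 (1.39 to 7.1) and 5.51 (3.45 to 8.34). Il12b was found in 5 and 2 of these cells, and most of the Il12b of the Csf3r gate lay in its other cells. Csf3r-gated cells without Csf1r had Il23a at 360 and 50.9, and those with Csf1r at 172 and 45.1.

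Il12a, the p35 chain of IL-12, was sparse. In the Csf3r gate it was 14.3 (12.1 to 16.8) and 2.90 (2.09 to 3.92), from 147 and 42 UMIs, a log2 ratio of -1.97 (-2.83 to -1.80). In macrophages it was 7.54 (4.78 to 11.3) and 2.59 (1.12 to 5.10), under the 10 CPM needed for a call. The dendritic gates, where Il12b was highest, held 4 Il12a UMIs in cDC1 and 3 in cDC2 of the Runx3_fl library, and 0 and 1 in the Runx3 library. No difference could be detected there at this depth.

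Ebi3 and Il27, the chains of IL-27, had smaller ratios than p40 and p19 in the Csf3r and macrophage gates. Among the 6 gates Ebi3 was highest in the Csf3r gate, at 69.6 (64.6 to 74.9) and 38.8 (35.7 to 42.2), a log2 ratio of -0.83 (-1.0 to -0.68). By its interval Ebi3 there was not set apart from cDC2 in the Runx3_fl library or from macrophages in the Runx3 library. In cDC2 it was 65.8 (57.2 to 75.4) and 26.5 (21.2 to 32.6), a log2 ratio of -1.28 (-1.69 to -0.95), past 2-fold, but not with 2 UMIs of each gate gene required (-0.85). With the median gene of each class set at 0, Ebi3 also passed 2-fold in macrophages (-1.11) and the Csf3r gate (-1.08). Macrophages had 55.4 (47.4 to 64.4) and 30.1 (24.3 to 36.9), and cDC1 28.1 (24.4 to 32.2) and 18.9 (10.4 to 31.8), whose intervals overlapped. In Ccr7 and Fscn1 cells Ebi3 was 205 (190 to 221) and 58.6 (45.9 to 73.6), a log2 ratio of -1.79 (-2.18 to -1.46).

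Il27, the p28 chain, had the same 2 leading gates as Il23a, though its intervals for those 2 gates overlapped in both libraries. It was 37.8 (34.1 to 41.7) and 18.7 (16.6 to 21.1) in the Csf3r gate, a log2 ratio of -0.98 (-1.24 to -0.79) that fell just short of 2-fold. In macrophages it was 34.7 (28.4 to 42.0) and 13.0 (9.25 to 17.6), a log2 ratio of -1.36 (-1.99 to -0.89). The intervals of the 2 libraries did not overlap in either gate. Within the Csf3r gate Il27 and Il23a were highest in different parts. Il27 was 17.7 and 10.3 in S100a8-high cells and 42.7 and 21.9 in the other cells. Il23a was 455 and 73.3 in S100a8-high cells and 175 and 37.1 in the other cells. In the dendritic gates Il27 stayed under 10 CPM, at 5.55 and 9.47 in cDC1 and 2.51 and 8.12 in cDC2. Over all kept cells, whose make-up by gate differed between the libraries, Ebi3 was 26.4 and 25.7 and Il27 10.9 and 13.3.

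**Figure D3:**
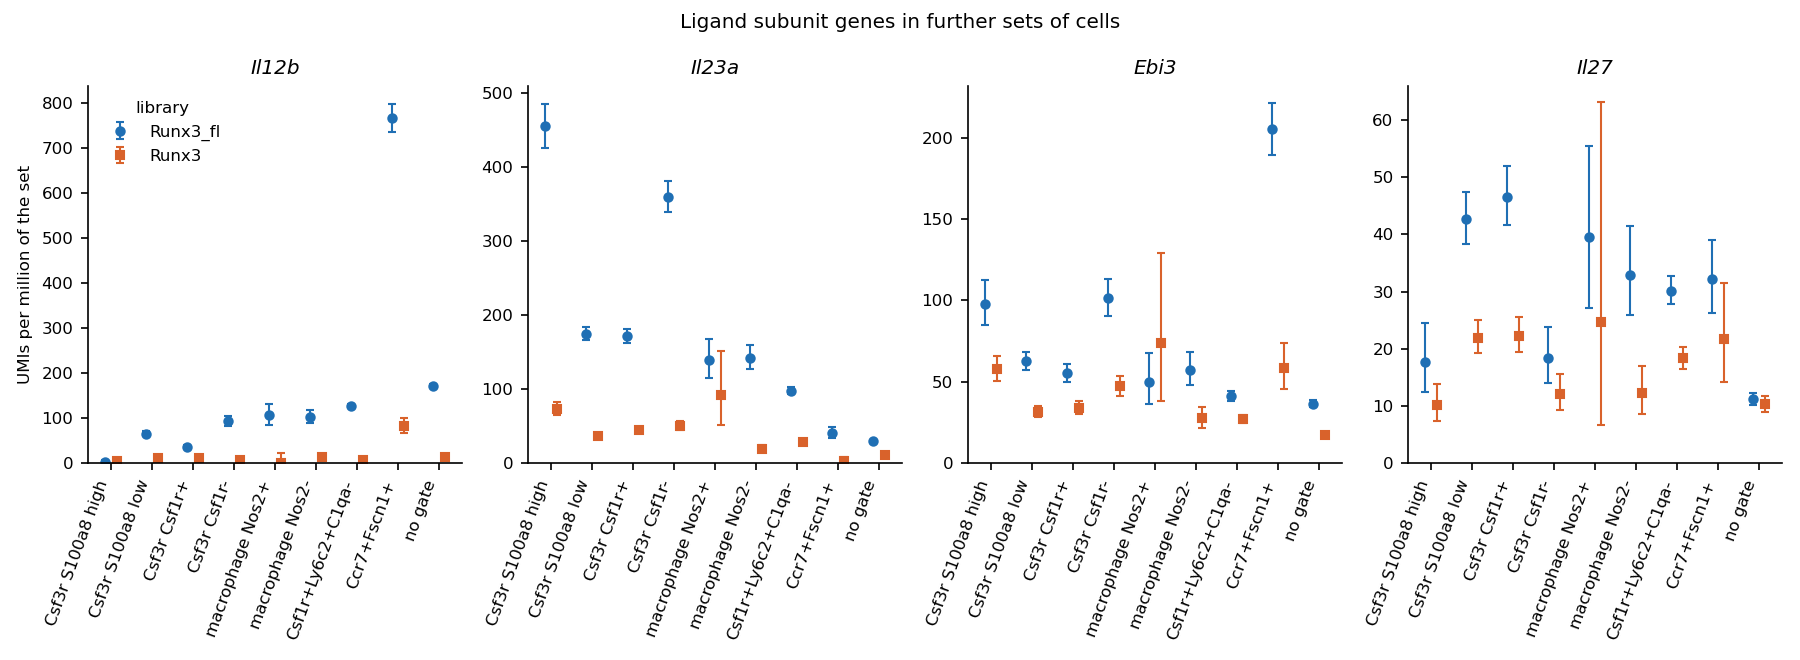
Levels of Il12b, Il23a, Ebi3 and Il27 in finer subsets of cells, in CPM on a linear axis of its own for each gene, with exact 95% Poisson intervals as bars, for the Runx3_fl (circles) and Runx3 (squares) libraries. Il12b is highest in Ccr7 and Fscn1 cells (767 and 82.6) and Il23a in S100a8-high cells of the Csf3r gate (455 and 73.3).

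Il12rb2, the signalling chain of the IL-12 receptor, was highest in NK cells, where the libraries were close. The level was 579 (566 to 593) in the Runx3_fl library and 662 (614 to 712) in the Runx3 library, a log2 ratio of 0.19 (0.080 to 0.304), and with 2 UMIs of each gate gene required it was -0.09. In T cells it was 372 (366 to 378) and 109 (99.3 to 120), a log2 ratio of -1.76 (-1.91 to -1.63). NK cells were thus near level and T cells well apart. After thinning, 58.1% and 60.2% of NK cells and 43.1% and 10.3% of T cells held Il12rb2, against 3.67% and 1.27% in the Csf3r gate. The myeloid gates held far less, from 14.4 in macrophages to 33.2 in cDC2 of the Runx3_fl library and from 5.83 to 18.3 in the Runx3 library, with log2 ratios of -1.87 in cDC1, -0.82 in cDC2, -1.18 in macrophages and -1.87 in the Csf3r gate. Lymphoid transcripts were lower in some of the same gates. Summed NK cell markers stood at 199.6 and 8.09 CPM in macrophages, 226.0 and 26.2 in the Csf3r gate and 95.3 and 35.2 in cDC1, but at 36.7 and 42.1 in cDC2. Much of these sums was 1 of the 5 markers, Gzma, a cytotoxic granule protease. It stood at 157 and 4.21 in macrophages, 183 and 17.2 in the Csf3r gate, 80.2 and 31.1 in cDC1 and 28.8 and 31.0 in cDC2. The part of such transcripts in the myeloid Il12rb2 differences was not tested. Thinned shares of cells with Il12rb2 were 1.67% and 0.683% in macrophages and 4.29% and 0 of 49 in cDC1.

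The lower Il12rb2 of the T gate was seen in each T cell subset, a split made after a look at the data. Cells with Cd4 had 426 (417 to 435) and 125 (106 to 146), cells with Cd8a 334 (326 to 343) and 144 (119 to 172), and cells with neither 297 (282 to 313) and 85.7 (73.2 to 99.8). The T gates differed in more than this gene. Summed NK cell markers stood at 1839 in the Runx3_fl T gate and 118 in the Runx3 T gate, and most of each sum was Gzma, at 1743 and 90.6. Their part in the Il12rb2 difference was not tested.

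Il12rb1, the chain shared by the IL-12 and IL-23 receptors, did not differ beyond counting error in T cells, at 22.9 (21.5 to 24.4) and 20.3 (16.1 to 25.1), a log2 ratio of -0.17 (-0.52 to 0.15). In NK cells it was 11.3 (9.48 to 13.4) and 24.9 (16.4 to 36.2), from 134 and 27 UMIs, a log2 ratio of 1.07 (0.48 to 1.74) that fell short of 2-fold with cells counted in every gate (0.77) and without the 5% of cells with the most UMIs (0.95). The NK intervals did not overlap, on 105 cells in the Runx3 library.

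Il23r, the specific chain of the IL-23 receptor, was found mainly in T-gated cells and had the largest ratio in favour of the Runx3 library among the 24 compared. Its T cell level was 6.12 (5.40 to 6.90) in the Runx3_fl library and 89.2 (80.3 to 98.8) in the Runx3 library, a log2 ratio of 3.66 (3.63 to 4.10). The UMIs came from 39 of 2946 and 37 of 458 cells, so the number of positive cells was alike and the number of all T cells was not. Thinned shares were 0.614% (0.364 to 0.969) and 5.84%, against 0.239% and 0.422% in the Csf3r gate. T cells with neither Cd4 nor Cd8a had 11.9 (9.03 to 15.4) and 163 (146 to 182), from 58 of the 264 and 316 of the 365 UMIs of the T gate. Cd4 cells had 7.83 and 38.5, from 152 and 49 UMIs, and Cd8a cells 1 UMI and 0.

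Cells with a UMI of Foxp3, the factor of regulatory T cells, numbered 54 and 103. They were taken from all kept cells, needed no Cd3e UMI and could meet other gates. Their Il23r level was 31.0 (19.4 to 46.9) and 25.7 (17.6 to 36.2), from 22 and 32 UMIs, with overlapping intervals. The set also held ligand transcripts, with Il23a at 57.7 and 6.42 and Il12b at 50.7 and 9.63, so it need not be regulatory T cells alone.

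**Figure D4:**
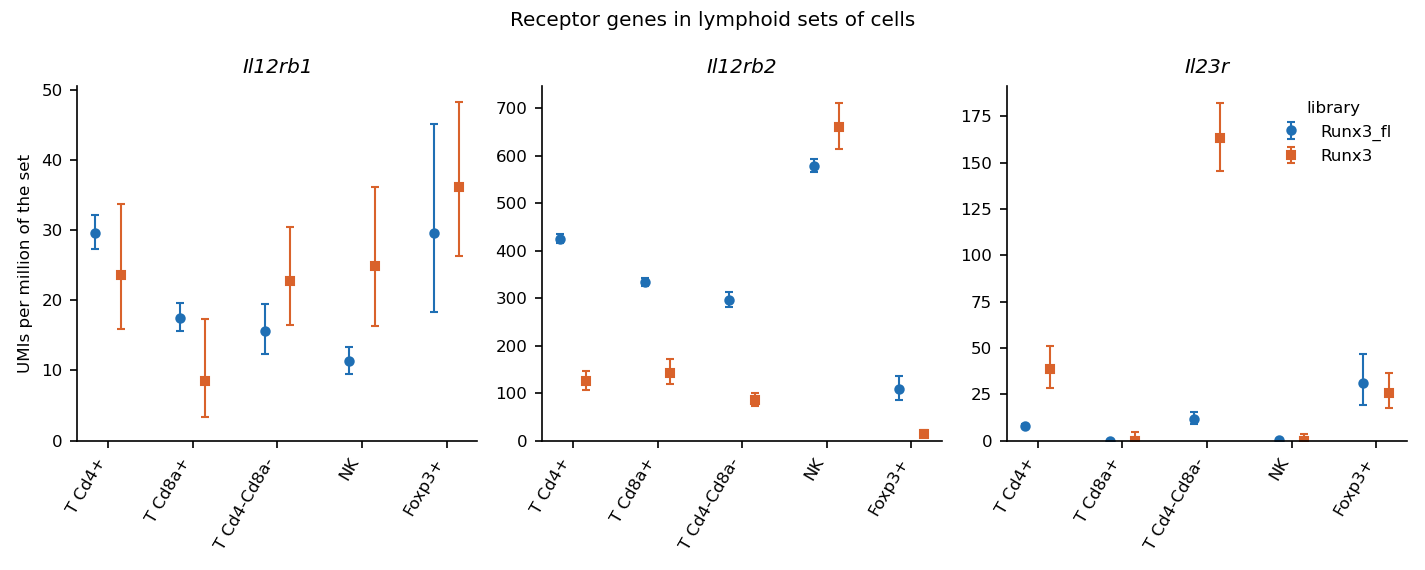
Levels of Il12rb1, Il12rb2 and Il23r in T cell subsets, NK cells and Foxp3 cells, in CPM on a linear axis of its own for each gene, with exact 95% Poisson intervals as bars, for the Runx3_fl (circles) and Runx3 (squares) libraries. Il12rb2 is 579 and 662 in NK cells and 426 and 125 in Cd4 T cells, and Il23r is 11.9 and 163 in T cells with neither Cd4 nor Cd8a and 31.0 and 25.7 in Foxp3 cells. Foxp3 cells are any kept cells with a Foxp3 UMI, inside the T gate or not.

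Counted by class, 14 of 24 combinations of member and gate passed 2-fold lower, 2 passed 2-fold higher and 8 passed neither, and the other 24 had too few UMIs. Among the ligands 10 of 15 were lower. Lower calls were 2 of 4 members in cDC1 (Il12b and Il12rb2), where 3.61% of all 8194 genes tested were lower, and 2 of 3 in cDC2 (Il12b and Ebi3), where 1.99% were. They were 4 of 5 in macrophages (Il12b, Il23a, Il27 and Il12rb2) against 3.41% of all genes, and 4 of 6 in the Csf3r gate (Il12a, Il12b, Il23a and Il12rb2) against 3.62%. In T cells 2 of 4 were lower (Il12b and Il12rb2) against 9.6%, and 1 was higher (Il23r) against 13.7%. In NK cells 1 of 2 was higher (Il12rb1) against 5.41%. The members' median log2 ratio was -1.21 in cDC1, -1.28 in cDC2, -1.36 in macrophages and -1.92 in the Csf3r gate, while the median over all genes tested was 0.12, 0.21, 0.25 and 0.25. With the median gene of each class set at 0, 18 of 24 combinations were lower. That setting moves every gene of these classes lower, and the share of all genes called lower under it is not given here, so the rise is not a result about the members.

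Restricting the Runx3_fl library to its cells with Y-linked transcripts and no Xist also gave 14 lower combinations, with Il12rb2 in macrophages no longer among them (-0.82) and Il27 in the Csf3r gate added (-1.11). In cDC1 those 225 cells had Il12b at 413 (395 to 432) and the 92 cells with Xist alone at 180 (162 to 199), against 1.35 in the Runx3 library. In the Csf3r gate Il23a was 220 (208 to 231) in 765 and 97.2 (82.9 to 113) in 168 cells, against 47.1. Both kinds of cell of the Runx3_fl library were above the Runx3 library for these genes, and they differed from each other.

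Detection of partner chains in the same cell varied by pair. Il12b and Il23a, the IL-23 pair, were together in 183 cells of the Runx3_fl library, 27.5% of its Il12b-positive and 13.4% of its Il23a-positive cells, and in 21 cells of the Runx3 library, 20.4% and 3.55%. Of the Runx3_fl macrophages 28 of 246 held both, which is 77.8% of the Il12b-positive and 29.8% of the Il23a-positive macrophages. In the Csf3r gate 30 of 1361 cells did, 51.7% of the Il12b-positive and 5.57% of the Il23a-positive cells, and 9 of 355 cDC1 did. Of all cells of these gates in that library, 38.2% of macrophages and 39.6% of Csf3r-gated cells held Il23a. Thinning left the pair in 6 of 240 macrophages and in 4 of 1253 Csf3r-gated cells. Thinned, 6 of 18 Il12b-positive macrophages held Il23a, against 17.5% of all macrophages. In the Csf3r gate 4 of 23 Il12b-positive cells did, against 26.5% of all cells of the gate. In the Runx3 library 2 of 346 macrophages held both. Over the 6 gates of the Runx3_fl library, 10.0% of Il23a-positive cells held Il12b. After thinning to even depth the IL-23 pair was left in 40 of 11269 cells and 2 of 6299 cells.

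The IL-12 pair Il12a and Il12b was in 31 and 10 cells, 14.0% and 8.06% of Il12a-positive and 4.65% and 9.71% of Il12b-positive cells. The IL-27 pair Ebi3 and Il27 was in 304 and 173 cells, 36.5% and 27.2% of Il27-positive and 18.1% and 16.3% of Ebi3-positive cells. Ebi3 with Il12a, the IL-35 pair, was in 65 and 32 cells, 29.4% and 25.8% of Il12a-positive and 3.88% and 3.01% of Ebi3-positive cells. On the receptor side, Il12rb1 with Il12rb2 was in 957 and 64 cells, of which 660 and 18 were T cells and 102 and 19 NK cells. They made up 77.7% and 23.0% of Il12rb1-positive and 15.5% and 9.95% of Il12rb2-positive cells. These shares are unthinned, and Il12rb2 itself was in 6180 of 11885 and 643 of 8167 kept cells. After thinning, 99 of 224 and 7 of 61 Il12rb1-positive cells held both. The IL-23 receptor pair, Il12rb1 with Il23r, was in 19 and 23 cells, 27.9% and 26.7% of Il23r-positive and 1.54% and 8.27% of Il12rb1-positive cells.

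**Figure D5:**
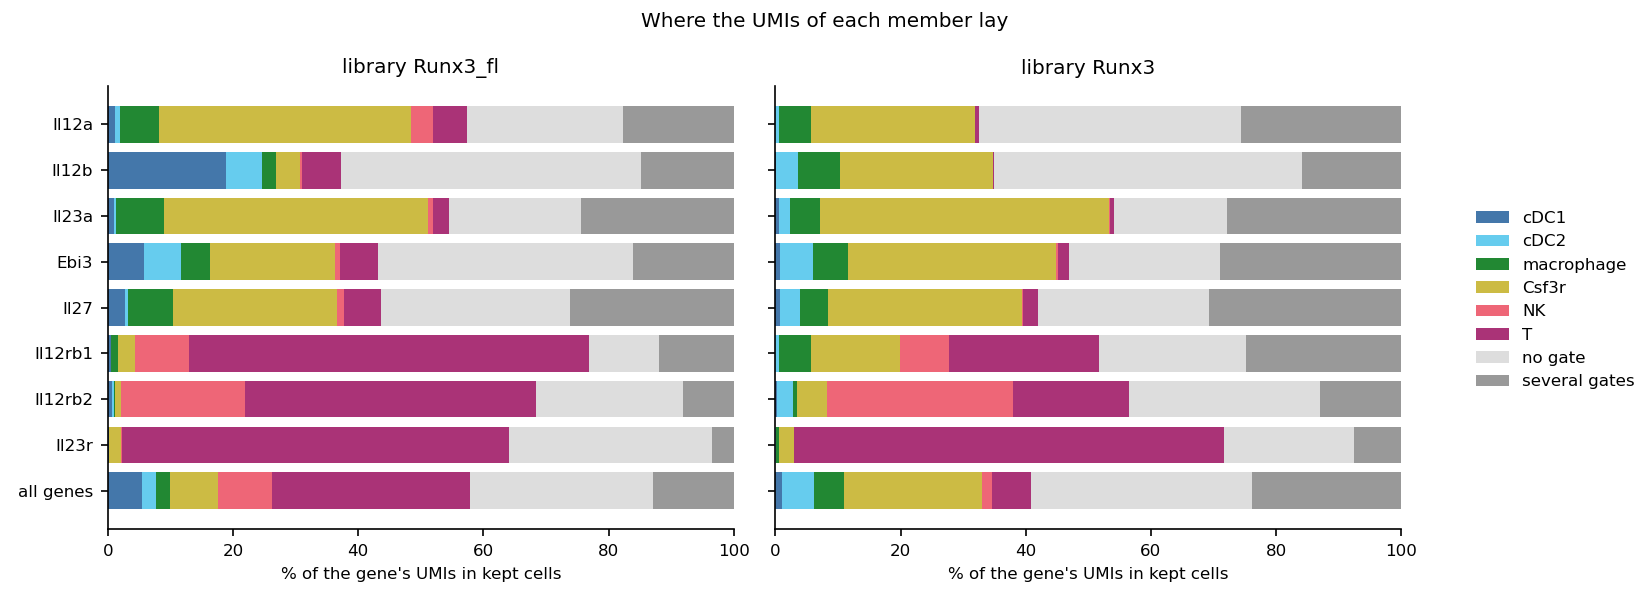
Share of each gene's UMIs, in percent of all its UMIs in kept cells, by gated class, cells of no gate and cells of several gates, for the Runx3_fl library on the left and the Runx3 library on the right, with all genes together as the last bar. Ungated cells hold 47.8% and 49.1% of Il12b UMIs, and the T gate holds 61.7% and 68.6% of Il23r UMIs.

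Other genes of the pathway were read in the class where each is highest in the Runx3_fl library. Of the 7 signalling genes read (Il27ra, Il6st, Jak1, Jak2, Tyk2, Stat3 and Stat4), 0 passed 2-fold in either direction. Few genes of any kind did in the classes used: 9.6% were lower and 13.7% higher in T cells, 1.99% lower in cDC2 and 5.41% higher in NK cells. A count of 0 of 7 therefore does not set these genes apart. Nearest the limit were Jak2 in cDC2 (-0.88) and Stat4 in T cells (-0.89). Of 5 target genes, 2 were higher in T cells of the Runx3 library, where 13.7% of all genes were. Il17a, the cytokine IL-17A, was at 1.39 and 41.3 CPM, a log2 ratio of 4.15, and Il22, the barrier cytokine IL-22, at 7.39 and 45.4, a log2 ratio of 2.47. Ifng and Tbx21 in NK cells and Il10 in macrophages passed neither limit.

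The genes whose levels ran most like each member over the 12 points (6 classes in 2 libraries) were ranked by Pearson correlation among 10243 genes. The points share library and depth, so these are descriptions only. Il23a ran most like Sod2, Prdx5 and Mapkapk2 (r = 0.97 for each), Ebi3 like Cybb, Cd40 and Mcl1 (r = 0.98 for each), and Il27 like Kctd19 (0.98), C1rl (0.97) and Acsl1 (0.97). Il12rb2 ran most like Rcn1 (0.99), Cst7 (0.97) and Ppm1j (0.97), Il12rb1 like Arhgap10 (0.97), Maml2 (0.95) and Rbm28 (0.95), and Il23r like Il22 (0.98), 5830411N06Rik (0.97) and Trat1 (0.97). The closest genes were less close for Il12b, with Psmb6 (0.90), Cope (0.89) and Poglut1 (0.89), and for Il12a were Gm44751, Slc9a8 and Atp6v1e1 (0.94 for each).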

How the data were processed

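The authors sequenced 2 pooled droplet libraries (10x 3′ chemistry, processed with Cell Ranger 7.1.0 per the file headers; mm10 and Seurat 4 per the processing notes) and deposited UMI counts as a filtered matrix for each library, without cell types. The intron setting and strand options are not given in the sources used here. Cells with 200 to 6000 genes and at most 15% mitochondrial UMIs were kept. Doublets were limited only by the upper gene limit and by setting aside cells of several gates. Counts were summed per gate and library and scaled to CPM. Shares of cells were thinned to 2000 UMIs per cell. Intervals (95%, exact Poisson, Clopper-Pearson or conditional binomial) and the floor of 3 counts for a count of 0 cover counting error only. All 8 members and 12 pathway genes of the fixed list are reported (the rest of the list is not reported here), with the 3 genes most like each member. Members, lists and finer gates were chosen with earlier results of these data known. Alternatives changed the cell filter, gates, depth, scale, pseudocount and fold. Scripts were tested on simulated data and ran in Python 3.11.15 with numpy 2.4.6, scipy 1.17.1, pandas 2.3.3 and matplotlib 3.10.9.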

Additional observations from a re-analysis of the deposited data

Results flagged for a closer look

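Il12rb2 was near level between the libraries in NK cells and lower in the Runx3 library in the other classes: its log2 ratio of the Runx3 over the Runx3_fl library was 0.19 in NK cells, with a sign that did not hold (-0.09 where 2 UMIs of each gate gene were required and -0.03 with cells counted in every gate), against -1.76 in T cells, -1.87 in cDC1, -0.82 in cDC2, -1.18 in macrophages and -1.87 in the Csf3r gate. With 1 library per group the difference between classes was not tested.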

How the results depend on the processing

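No paired analysis was possible because each group has 1 library, and leaving out a replicate was not possible for the same reason. No ratio past 2-fold changed sign under 9 alternatives. Among the others Ebi3 in cDC1 was 0.18 with cells counted in every gate, against -0.55, and Il12rb2 in NK cells -0.03 there and -0.09 with 2 UMIs of each gate gene, against 0.19. Several ratios crossed the 2-fold limit. Calls lost were Il12rb1 in NK cells (0.77 with cells counted in every gate and 0.95 without the 5% of cells with the most UMIs), Il27 in macrophages (-0.94 with every gate), Ebi3 in cDC2 (-0.85 with 2 UMIs of each gate gene) and Il12rb2 in macrophages (-0.78 there and -0.82 with the Y-linked restriction). Calls gained were Il27 in the Csf3r gate (-1.23 to -1.01 under 4 alternatives), Ebi3 in the Csf3r gate (-1.08 with the median gene at 0 and -1.09 without Csf1r cells), Ebi3 in macrophages (-1.11 with the median gene at 0) and Il12rb2 in cDC2 (-1.42 with every gate and -1.04 with the median gene at 0). The count of members lower in a gate ranged from 12 to 18 around 14. Counting a cell in every gate it meets moved 16 of 24 ratios beyond their counting interval, requiring 2 UMIs of each gate gene moved 7, and the Csf3r gate without Csf1r cells moved 4. That gate, the macrophage gate before the Csf3r gate and the Y-linked restriction were chosen after seeing the data. Il12b in cDC1 was -5.22 with no filter on cells, against -7.29. With cells counted in every gate, 3 of 8 members kept the same leading class in both libraries, against 6, and 13.2% of Il23a-positive cells of the Runx3_fl library held Il12b, against 10.0%, while thinning to 2000 UMIs gave 3.70%. The share of cDC1 with Il12b in that library was 10.8% thinned to 1000 UMIs and 21.1% without thinning, against 14.3%. Depth limits Il12a in dendritic cells and all members in the 55 cDC1 and 105 NK cells of the Runx3 library.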
